A study of Drosophila melanogaster with 8 samples.

Results

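Chromosome 4 of Drosophila melanogaster was examined with 3954 tiling probes, selected as every genomic probe whose listed position lies on chromosome 4 and not on the separate heterochromatic scaffold 4h. They made up 1.66% of the 237696 genomic probes on one of the 2 array designs, and the whole series held 475395 genomic probes. H3K36me3, the trimethylation of histone H3 at lysine 36, was measured by chromatin immunoprecipitation on microarrays (ChIP-chip) in whole embryos collected 2 to 4 hr after egg laying. The mutant embryos (2 samples) carry a P-element inserted in the first exon of dKDM4A, the gene of a JmjC-domain demethylase that removes H3K36 methylation and binds Heterochromatin Protein 1a (HP1a). The wild type embryos (2 samples) came from a line in which the same P-element had been excised precisely, so both groups share one genetic background. Embryos were collected in bulk from population cages, and each sample is a mixture of all cell types of the embryo. Immunoprecipitated (IP) DNA carried Cy5 and input DNA carried Cy3 on every array, with no dye swap. Replicate 1 of both genotypes was scanned on one day and replicate 2 of both on another. The array files name no genes, so the dKDM4A locus was not looked up in the samples, and chromosome 4 is described here by position alone.

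Chromosome 4, the dot chromosome, is the smallest chromosome of the fly. It combines the repeats, HP1a binding and H3K9 methylation of heterochromatin with many active genes along its assembled arm. H3K36 trimethylation is placed along the bodies of transcribed genes by an enzyme that travels with elongating RNA polymerase II, and demethylases of the KDM4 family can remove it. The chromosome is therefore a place where a mark of transcribed genes lies inside heterochromatin, and the comparison asks where on it the mark changes when dKDM4A is lost.

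The probes ran from position 24273 to position 1275067, as the array files list them. The files name no genome build. Neighbouring probes started a median of 222 bp apart, and 22 gaps were longer than 3000 bp, the longest from 1219773 to 1252172. All but 2 probes had a usable value in all 4 samples. In 2 kb windows with at least 3 probes, 531 windows were covered, with a median of 8 probes per window. A level is the log2 ratio of IP over input minus the median of that array, so 0 is the middle of the array and a change shared by all probes of an array cannot be seen. The input was well above background at 99.4% and 95.9% of the chromosome 4 probes in the 2 mutant samples and at 99.5% and 95.2% in the 2 wild type samples. The IP channel was well above background at 93.4% and 86.6% of them in the mutant samples and at 94.7% and 86.4% in the wild type samples. No chromosome 4 probe was saturated in either channel.

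Chromosome 4 carried a high level of H3K36me3 in both genotypes. Its probes averaged 1.89 and 2.39 in mutant replicates 1 and 2, against 1.90 and 2.34 in wild type replicates 1 and 2. The probes of arms 3L, 3R and X on the same arrays averaged 0.69 and 0.85 in mutant replicates 1 and 2 and 0.67 and 0.84 in wild type replicates 1 and 2. The 1 Mb next to the centromere was left out on 3L and X, while all 3R probes of this array design were used. Each sample of replicate 2 lay above each sample of replicate 1, while the genotypes overlapped. A mark at a higher level per nucleus and a mark in more nuclei cannot be told apart in such mixed samples. The difference between chromosome 4 and the arms was 1.21 and 1.54 in the mutant samples and 1.23 and 1.50 in the wild type samples, with a mean of 1.37 ± 0.17 (SD, n = 4). It was positive in 4 of 4 samples, and the exact sign permutation test over the 4 samples gave p = 0.125, two-sided, the smallest p that 4 samples allow. The share of chromosome 4 probes above 0 was 85.4% and 88.1% in the mutant samples and 84.8% and 88.8% in the wild type samples. On the arms it was 48.3% and 48.1% in the mutant samples and 48.6% and 48.2% in the wild type samples.

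**Figure D1:**
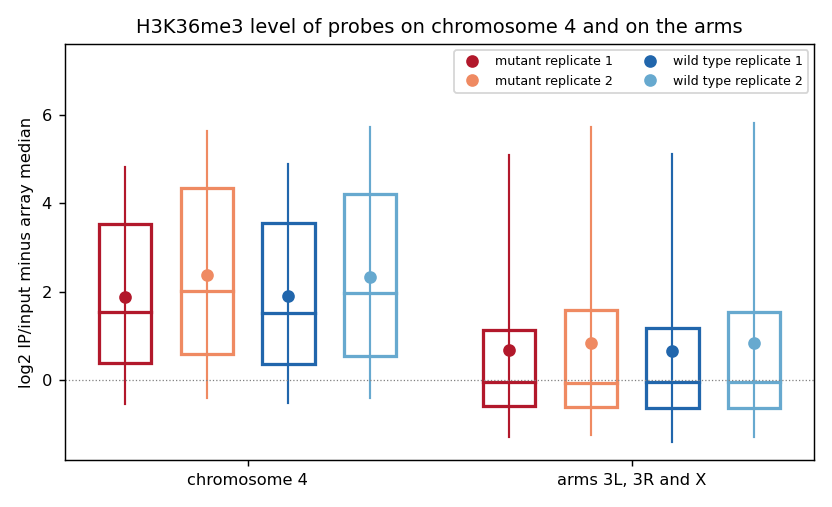
H3K36me3 level (log2 IP/input minus the median of the array) of the 3952 chromosome 4 probes and the 221746 arm probes with values, by sample. Points are means, boxes run from the 25th to the 75th percentile with the median as a line, and whiskers run from the 5th to the 95th percentile. Means on chromosome 4 lie between 1.89 and 2.39 in all 4 samples, against 0.67 to 0.85 on the arms.

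Both channels contributed to this difference. The log2 IP signal of chromosome 4 probes exceeded that of the arms by 0.78 and 0.55 in the mutant samples and by 0.83 and 0.51 in the wild type samples. The log2 input signal was lower on chromosome 4 than on the arms, by -0.43 and -0.99 in the mutant samples and by -0.40 and -0.99 in the wild type samples. The larger ratio of replicate 2 thus came with a dimmer input and not with a brighter IP signal, in both genotypes. When arm probes were weighted to the same input brightness as the chromosome 4 probes, the difference was 1.33 and 1.59 in the mutant samples and 1.34 and 1.58 in the wild type samples.

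The chromosome was not uniformly marked. Of its 531 windows, 215 (40.5%) had a level of 2 or more in all 4 samples and 168 (31.6%) stayed under 1 in all 4 samples. On the arms, 19.6% of 26760 windows reached 2 in all samples and 72.4% stayed under 1. Windows with a mean level of 4 or more made up 21.7% of chromosome 4 and 12.2% of the arms. Windows with a mean level below 0 were the rarest class on chromosome 4, at 10.2%, and the most common class on the arms, at 60.0%.

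**Figure D2:**
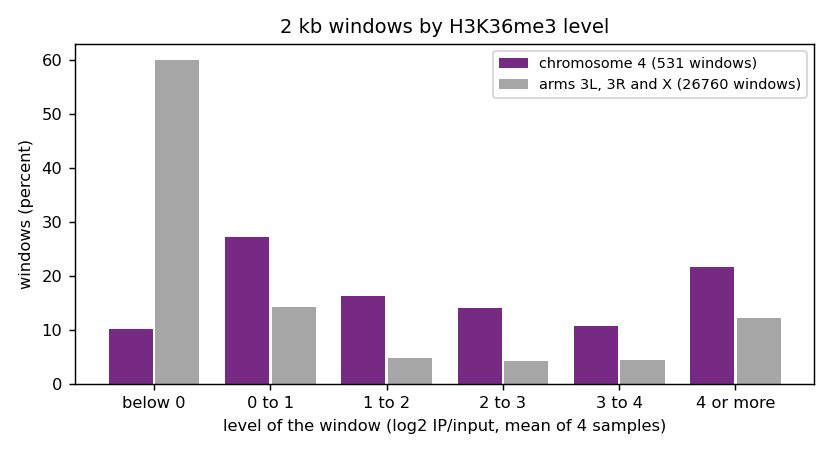
Share of 2 kb windows (percent) in 6 classes of H3K36me3 level, the mean log2 IP/input of all 4 samples, on chromosome 4 (531 windows) and on the arms (26760 windows). Below 0 lie 10.2% of chromosome 4 windows, against 60.0% of arm windows.

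High windows formed 60 blocks of adjacent windows, with a median length of 6 kb, and 18 of the blocks were 10 kb or longer. The longest in all 4 samples ran from 124001 to 144000 and averaged 3.59 and 4.47 in the mutant samples and 3.69 and 4.38 in the wild type samples. A block from 934001 to 950000 was more strongly marked, at 4.24 and 5.12 in the mutant samples and 4.39 and 5.19 in the wild type samples. With the genotypes taken apart, 233 windows were at 2 or more in both mutant samples and 225 in both wild type samples. The longest block was 20 kb in the mutant samples and 42 kb in the wild type samples. The 42 kb block ran over the windows from 102001 to 144000, and in the mutant it was interrupted at 118001 and 122001, where mutant replicate 1 had levels of 1.64 and 1.94.

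Between the blocks lay long low stretches, in which every window stayed under 1 in all 4 samples. From 398001 to 434000, 36 kb averaged -0.13 and 0.01 in the mutant samples and -0.12 and 0.01 in the wild type samples. From 506001 to 540000, 34 kb averaged -0.12 and -0.01 in the mutant samples and -0.14 and 0.00 in the wild type samples. A stretch of 34 kb from 716001 to 750000 and one of 32 kb from 826001 to 858000 were likewise within 0.14 of the array median in all samples. These stretches sat at the middle of the array and not below it.

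By 100 kb segment, the segment from 300001 to 400000 had the highest mean level among the 11 segments with the fullest probe coverage, at 2.66 and 3.31 in the mutant samples and 2.71 and 3.26 in the wild type samples. The segment from 700001 to 800000 had the lowest, at 1.01 and 1.32 in the mutant samples and 0.86 and 1.23 in the wild type samples. The last segment, from 1200001 to the end of the probes, was higher still on 124 probes, at 2.79 and 3.51 in the mutant samples and 2.63 and 3.21 in the wild type samples. In each of these 3 segments, replicate 2 lay above replicate 1 of the same genotype.

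**Figure D3:**
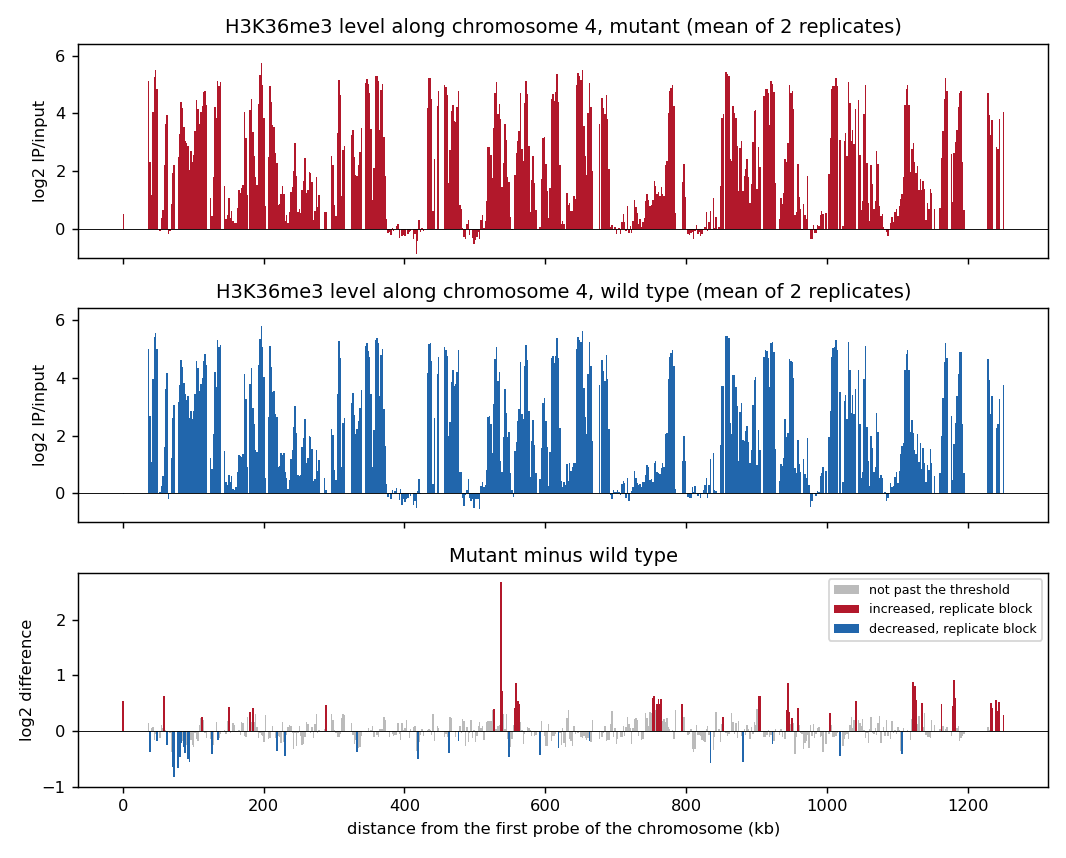
Levels and differences along chromosome 4 in 2 kb windows, against the distance from the first probe (kb). The upper panels give the mean log2 IP/input of the 2 mutant and of the 2 wild type samples, and the lower panel gives mutant minus wild type, with windows past the threshold in the fit with the replicate as a block in colour. The 215 windows at 2 or more and the 168 under 1 in all 4 samples appear in both upper panels, and the tallest bar of the lower panel is the called window, 2.67 higher in the mutant.

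Among windows with at least 5 probes, the highest level was at 220001 to 222000, with 5.37 and 6.11 in the mutant samples and 5.41 and 6.20 in the wild type samples. The next were at 676001 to 678000, with a mean over all samples of 5.57, at 70001 to 72000 with 5.51, and at 880001 to 882000 and 882001 to 884000 with 5.44 and 5.41. None of these 5 windows differed between the genotypes by more than 0.13, and their limma fits gave no call (adjusted p 1.00 without and 0.09 to 0.87 with the replicate block). The lowest level was at 522001 to 524000, with -0.58 and -0.42 in the mutant samples and -0.73 and -0.30 in the wild type samples. The other low windows began at 530001, 1000001, 436001 and 508001, with means of -0.44, -0.41, -0.37 and -0.35 over all samples. These 5 differed by 0.01 to 0.18, and none was called in either fit. The size of the high levels depended on the dye normalization and on the background correction. The 5 highest windows, at 5.41 to 5.77, stood at 0.70 to 1.50 after loess within each array. After normexp background correction they stood at 3.72 to 4.05.

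Neighbouring windows resembled each other over a short range. Across chromosome 4, the levels of windows 2 kb apart correlated at r = 0.81 (494 pairs), those 10 kb apart at 0.32 and those 20 kb apart at 0.08. On the arms the same distances gave 0.81, 0.38 and 0.23. Such pairs of windows share arrays and probe composition, and the values are descriptions.

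The mean level of the whole chromosome differed between the genotypes by less than the spread between replicates. Relative to the arms, chromosome 4 averaged 1.37 ± 0.23 in the mutant and 1.37 ± 0.19 in wild type (SD, n = 2 each), a difference of 0.01 on the log2 scale. Within replicate 1 the difference was -0.03 and within replicate 2 it was 0.04. The exact permutation test over the 4 samples gave p = 1.00, two-sided, where the smallest p possible is 0.333. The sign of so small a difference turned with several settings, and normexp background correction made it -0.20 within replicate 1 and -0.13 within replicate 2.

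The separately listed scaffold 4h was higher in the mutant within both replicates. Its 87 probes averaged 1.99 and 2.27 in the mutant samples, against 1.58 and 1.92 in the wild type samples, a difference of 0.41 within replicate 1 and 0.35 within replicate 2. Chromosome 4 minus 4h was -0.09 and 0.12 in the mutant samples and 0.32 and 0.43 in the wild type samples. The genotypes did not overlap in this difference (exact permutation p = 0.333, two-sided, the smallest possible with 2 samples per genotype). A higher mutant level was not particular to 4h. Within replicates 1 and 2, the unmapped arm U was higher by 0.29 and 0.34, and scaffold Xh by 0.10 and 0.14. Chromosome 4 minus U also separated the genotypes, at 0.85 and 1.04 in the mutant samples and 1.15 and 1.34 in the wild type samples.

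Differences between the genotypes on chromosome 4 went in both directions, as they did over the whole series. Of the 531 windows, 164 (30.9%) were higher in the mutant in both replicates and 186 (35.0%) were lower in both. The shares were 33.3% and 27.7% of all 57266 windows of the series, and 30.9% and 29.1% on the arms. The median difference was -0.01 and the median absolute difference was 0.12, the same absolute value as on the arms. The 95th percentile of the absolute difference was 0.51 on chromosome 4 and 0.41 on the arms. Between replicates, the differences of the chromosome 4 windows correlated at r = 0.61, and at 0.55 without the called window. The same correlation was 0.40 over the arm windows and 0.47 over all windows. Windows with an intermediate level of 2 to 3 had the widest range of differences, from -0.43 at the 5th percentile to 0.86 at the 95th percentile over 75 windows. The 115 windows at 4 or more ranged from -0.19 to 0.16 by the same percentiles. The arms showed a like pattern, from -0.41 to 0.61 at levels of 2 to 3 and from -0.23 to 0.22 at 4 or more.

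In the limma fit across all windows with Benjamini-Hochberg adjustment, 1 chromosome 4 window was increased past an adjusted p of 0.05 and 0 were decreased. Over all windows 0.353% were called increased and 0.173% decreased, so 1 of 531 (0.188%) is no more than the background share. That fit did not use the replicate pairing, and its standard error rose with the level. It was 0.17 at the window from 522001 (level -0.51) and 0.67 at the window from 220001 (level 5.77). High windows make up a larger share of chromosome 4 than of the arms, so the shares compare windows that differ in how easily they are called. At an unadjusted p under 0.05 the same fit had 18 chromosome 4 windows higher (3.39%) and 7 lower (1.32%) in the mutant, against 3.74% and 2.07% of all windows. With the replicate as a block, limma called 45 chromosome 4 windows increased (8.47%) and 29 decreased (5.46%). A call in that fit did not require both replicates to move alike. The increased window from 1274001 to 1276000 had -0.17 within replicate 1 and 0.74 within replicate 2. The decreased window from 486001 to 488000 had -0.73 and -0.05. The shares over all windows in that fit were 5.40% increased and 3.73% decreased, and those on the arms were 4.05% and 4.07%. Chromosome 4 thus had a larger share of calls than the background in both directions. Calls with the block depended on the level of the window, however. On the arms, 227 of 16052 windows below 0 were called increased and 152 decreased, against 164 and 101 of 1129 windows at 2 to 3. Windows below 0 were rarer on chromosome 4 and windows at 2 to 3 more common, so the shares compare unlike mixes of levels. Whether any excess at like levels is particular to chromosome 4 was not tested.

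The called window ran from 560001 to 562000 and held 7 probes. Its level was 3.30 and 4.31 in the mutant samples, against 1.12 and 1.15 in the wild type samples. Both mutant samples lay far above both wild type samples, which were nearly equal. The difference was 2.67 with a standard error of 0.35 (limma, adjusted p = 8.86e-11), and it was 2.18 within replicate 1 and 3.16 within replicate 2. These values include 2 probes whose IP signal was not well above background in either wild type sample. Over the 5 probes well above background in all samples, the difference was 2.505. It was 2.12 within replicate 1 and 2.89 within replicate 2 there. Leaving out any 1 of the 4 samples kept the call, with adjusted p-values up to 0.0304. The call was lost in limma without the variance trend (adjusted p = 0.336), after loess within each array (adjusted p = 1.00) and after normexp background correction (adjusted p = 1.00). The difference was 2.79 after loess and 0.75 after normexp.

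Probe by probe, the change sat on one side of an H3K36me3 block. The 8 probes from 558566 to 560277 averaged 3.82 and 4.76 in the mutant samples and 3.84 and 4.63 in the wild type samples. At the next 6 probes, from 560630 to 561675, the levels of the genotypes parted. At 2 of these 6 probes the IP signal was not well above background in either wild type sample, and Feature Extraction put a surrogate in its place in wild type replicate 2, so the wild type level there is only a bound and no size of change is given for them. The other 4 probes, from 560770 to 561675, had IP signals well above background in all 4 samples and averaged 3.38 and 4.28 in the mutant samples, against 0.65 and 0.73 in the wild type samples. At each of these 4 probes the mutant was higher, by 2.30 to 3.17 within replicate 1 and by 2.65 to 4.20 within replicate 2. Over the following 6 probes, from 562506 to 564348, the levels were 0.95 and 1.90 in the mutant samples and 0.76 and 1.19 in the wild type samples.

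Both channels can be read apart at these 4 probes. The median IP signal was 751 and 568 intensity units in the mutant samples, against 63.1 and 33.5 in the wild type samples. The median input signal was 499 and 199.6 in the mutant samples, against 345 and 161 in the wild type samples. The log2 input was higher in the mutant by a mean of 0.38, and by 0.01 to 0.75 at single probes, while it differed by 0.02 on average at the 8 probes before the run and by -0.02 at the 6 probes after it. The part of this input difference in the result was not tested. Leaving out probes whose input differs between the genotypes by 1 or more kept 6 of the window's 7 probes. The window then differed by 2.68. That filter removed none of these 4 probes, so it says nothing about their input difference. The run of 6 probes was 1 of 2 runs on chromosome 4 in which 3 or more adjacent probes were higher by 1 or more in both replicates. The other, 3 probes from 1147646 to 1148533, had 1.97 and 3.40 in the mutant samples and 0.81 and 2.10 in the wild type samples. No such run was lower. The arms had 26 such runs higher and 19 lower over 221746 probes, or 0.117 and 0.0857 per 1000 probes, against 0.506 and 0 per 1000 on chromosome 4. The chromosome 4 rate rests on only 2 runs. The run of 6 probes includes the 2 probes at which the wild type IP signal was not well above background. Single probes past this size in both replicates numbered 15 higher (0.380%) and 5 lower (0.127%), against 0.530% and 0.401% of all probes.

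**Figure D4:**
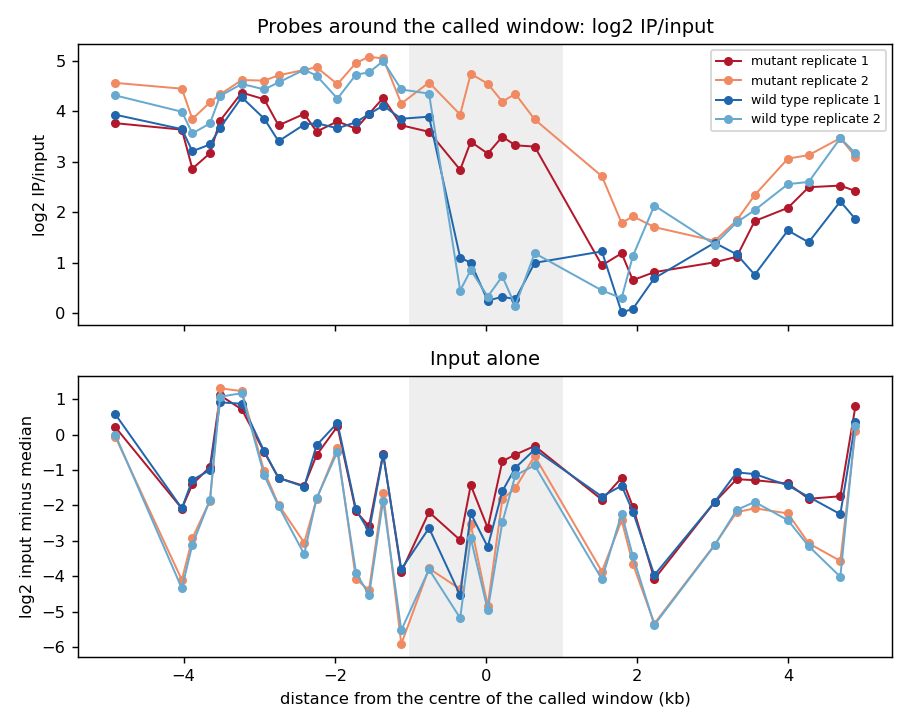
Probes from 5 kb before to 5 kb after the centre of the called window (grey band), by sample, against the distance from its centre (kb). The upper panel gives log2 IP/input and the lower panel gives the log2 input signal minus the array median. In the band the 4 shifted probes with IP well above background in all samples average 3.38 and 4.28 in the mutant samples and 0.65 and 0.73 in the wild type samples.

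Averaged over block edges, the difference between the genotypes was far smaller. Taking the 35 blocks of at least 3 windows with a level of 2 or more in replicate 1 of both genotypes, 52 edges had a covered window just outside. Read in replicate 2, which did not define the blocks, the first window outside averaged 1.81 in the mutant and 1.64 in wild type (SD over windows 0.84 and 0.75). The difference there was 0.17, and 0.12 without the called window. The first window inside differed by 0.09 and the second by 0.02.

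The procedure of the study's Methods was applied to the mutant over wild type (mt/WT) track of each replicate, keeping peaks that overlap between replicates. The procedure gave 10 increased and 5 decreased peaks on chromosome 4. Increased peaks had to hold more positive than negative mutant probes, and decreased peaks had no such filter. On chromosome 4 there were 10 increased peaks without the filter too. Its effect on the shares of the whole series was not tested, so the 2 directions there are not like for like. The increased peaks held 125 chromosome 4 probes (3.16%) and the decreased peaks held 64 (1.62%), against 2.02% and 1.65% of all probes in the series. This procedure has no test, and its peaks were chosen by the difference itself. In 7 of the 10 increased peaks both mutant samples lay above both wild type samples, and in 4 of the 5 decreased peaks both lay below. Over the whole series the same held for 86.3% of 710 increased and 96.7% of 734 decreased peaks. All 15 peaks touched at least 1 window called in the same direction with the replicate block. Of the windows so called, 19 of 45 increased and 9 of 29 decreased windows touched a peak.

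The largest increased peak by difference ran from 559851 to 562974 and contains the called window. It averaged 2.69 and 3.70 in the mutant samples, against 1.18 and 1.30 in the wild type samples. The widest ran from 1145959 to 1151715 with 20 probes, at 2.22 and 2.90 in the mutant samples and 1.49 and 2.14 in the wild type samples. Another wide peak, from 1202687 to 1208097, had 2.07 and 2.77 in the mutant samples and 1.49 and 1.98 in the wild type samples. In these 3 peaks every mutant value exceeded every wild type value.

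The peak from 966294 to 969996 had 2.42 and 3.02 in the mutant samples and 1.95 and 2.16 in the wild type samples. The peak from 81593 to 84407 had 2.04 and 2.20 in the mutant samples and 1.51 and 1.85 in the wild type samples. The peak from 819217 to 820273 had 1.74 and 2.26 in the mutant samples and 1.13 and 1.57 in the wild type samples. These 3 also separated the genotypes.

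The peak from 775520 to 776734 had the lowest level in wild type, 0.36 and 0.44, and stood at 1.00 and 0.90 in the mutant samples. In the peak from 583383 to 585820 the mutant samples were at 2.52 and 3.34 and the wild type samples at 1.70 and 2.89. The peak from 1159120 to 1160112 had 0.99 and 1.89 in the mutant samples and 0.36 and 1.21 in the wild type samples. The peak from 1264185 to 1269197 had 2.69 and 3.45 in the mutant samples and 2.35 and 2.85 in the wild type samples. In the last 3 of these peaks mutant replicate 1 lay below wild type replicate 2, and the increase shows only within replicates. Over the 10 peaks, the log2 input of mutant minus wild type ranged from -0.12 to 0.28.

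**Figure D5:**
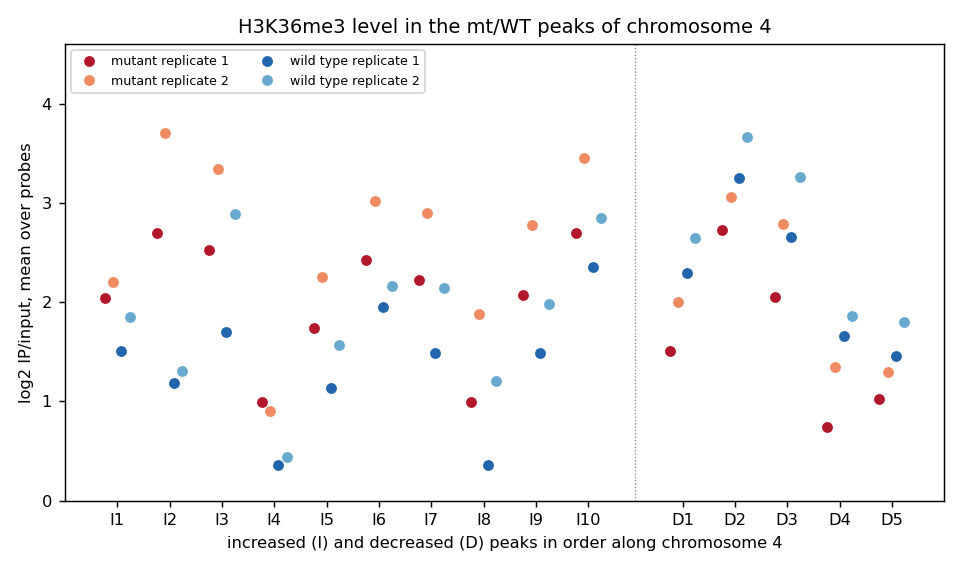
Mean log2 IP/input over the probes of each of the 10 increased (I) and 5 decreased (D) mt/WT peaks, in order along chromosome 4, by sample. I2, which contains the called window, has 2.69 and 3.70 in the mutant samples and 1.18 and 1.30 in the wild type samples.

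The decreased peaks were concentrated at low coordinates. The peak from 92852 to 97159 had 1.51 and 2.00 in the mutant samples, against 2.29 and 2.64 in the wild type samples. The peak from 102641 to 106026 had 2.73 and 3.05 in the mutant samples and 3.25 and 3.66 in the wild type samples. The peak from 116298 to 119978 had 2.05 and 2.78 in the mutant samples and 2.65 and 3.26 in the wild type samples. All 3 lie within 28 kb of each other, and in the third mutant replicate 2 lay above wild type replicate 1. The other 2 were at 904715 to 905844, with 0.74 and 1.34 in the mutant samples and 1.66 and 1.86 in the wild type samples, and at 1129307 to 1131712, with 1.03 and 1.30 in the mutant samples and 1.45 and 1.80 in the wild type samples.

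Around these 3 neighbouring peaks, 13 of the 15 windows between 86001 and 120000 were lower in the mutant in both replicates, and 0 were higher in both. Their mean was 2.25 and 2.76 in the mutant samples and 2.64 and 3.12 in the wild type samples, a difference of -0.39 within replicate 1 and -0.36 within replicate 2. With the replicate block, 10 of the 15 were called decreased. The stretch was picked after its values were seen, so these counts are a description. The log2 input was lower in the mutant there, by -0.10 on average, and its part in the difference was not tested.

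The increased windows lay farther along the chromosome. Below position 400001, the fit with the replicate block called 7 windows increased and 17 decreased of 150. From 400001 to 800000 it called 13 increased and 7 decreased of 186, and beyond 800000 it called 25 increased and 5 decreased of 195. These sections were also drawn after the values were seen.

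Runs of 3 or more adjacent windows called in the same direction with the replicate block numbered 6 increased and 1 decreased on chromosome 4. They held 20 windows (3.77%) and 3 windows (0.565%), against 1.42% and 0.698% of all windows. These shares are not matched for level, on which calls in that fit depended. The increased runs were 580001 to 588000, 782001 to 790000, 966001 to 972000, 1146001 to 1152000, 1202001 to 1208000 and 1264001 to 1270000. The run from 782001 to 790000 lay in a weakly marked region and averaged 1.14 and 1.42 in the mutant samples and 0.43 and 1.06 in the wild type samples over its 4 windows. It touched no peak. The run from 1146001 to 1152000 averaged 2.08 and 2.73 in the mutant samples and 1.32 and 1.99 in the wild type samples, a difference of 0.76 within replicate 1 and 0.75 within replicate 2. The decreased run, from 102001 to 108000, averaged 3.15 and 3.65 in the mutant samples and 3.55 and 4.13 in the wild type samples.

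These runs depended on how background was handled. Over the probes of each run, all 6 increases kept their direction in both replicates after loess and in the deposited log2 ratios, though the run from 782001 to 790000 shrank to 0.24 within replicate 1 and 0.06 within replicate 2 after loess. After normexp background correction only the run from 1146001 to 1152000 was higher in both replicates (0.17 and 0.09), the run from 782001 to 790000 differed in direction between replicates, and the other 4 turned lower in both. Under normexp the whole chromosome moved by -0.10 within replicate 1 and -0.38 within replicate 2. The decreased run was lower in both replicates under each of these settings.

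The input DNA itself differed little between the genotypes along chromosome 4. Only 6 of its 3952 probes (0.152%) had a log2 input that differed by 1 or more between the genotypes, against 1.59% of the arm probes. The mean input difference of mutant minus wild type was -0.03 within replicate 1 and -0.0040 within replicate 2. Between replicates the input differed more, by -0.75 for replicate 2 minus replicate 1 on chromosome 4 and by -0.18 on the arms.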

How the data were processed

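H3K36me3 ChIP-chip was measured in 4 embryo samples (2 mutant, 2 wild type), each on 2 Agilent array designs (8 arrays); chromosome 4 lies on one of them. The deposited scanner intensities were made by the authors with Feature Extraction 10.5.1.1, which subtracted background and spatial trends, applied a linear dye normalization and put surrogates in place of signals near background; deposited flags marked probes well above background, saturated or outlying. The authors' deposited log2 ratios, for which the labels name limma, served as an alternative; on chromosome 4 they correlated with the scanner ratios at 0.98 to 0.99, and their median per array was -0.02, while further steps are not given in the sources used here. No genome build is given in the sources used here.

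From the processed Cy5 and Cy3 intensities, log2 IP/input was taken per probe without control spots and outliers and centred on the median of the array. Neither loess nor quantile normalization was applied, since many probes carry signal. Means over 2 kb windows with at least 3 probes were fitted over both designs with limma 3.58.1 (R 4.3.3; eBayes with trend), with Benjamini-Hochberg adjustment at 0.05. Such p-values with 2 samples per genotype lean on the spread pooled over windows. Single values were compared by exact permutation over samples (Python 3.11.15, numpy 2.4.6, pandas 2.3.3, scipy 1.17.1). Peaks followed the Methods: a moving average over 5 probes per replicate, candidate and peak thresholds at the mean plus 1 and 2 SD of positive probes, runs of at least 3 probes, gaps up to 1000 bp and any overlap between replicates; decreased peaks used the reversed track. Increased peaks also had to hold more positive than negative mutant probes, and decreased peaks did not have this filter. The extent of overlap, 1 bp, was set here. The procedures were tested on simulated data.

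Replicate numbers pair the samples. Mutant and wild type arrays with the same number have the same scan day in the headers, and over chromosome 4 windows the replicate differences of the 2 genotypes correlated at r = 0.72. Windows named are those past the threshold, the 5 highest and the 5 lowest with at least 5 probes, and all peaks. The members, windows and lists were chosen with earlier results of these data known. Alternatives covered background, dye normalization, centring, scaling, deposited ratios, filters, window size, the replicate block and each sample left out. The number of arrays limits the precision. No gene was placed on the probe positions and no sequence is shown, since no genome of the probes' build was at hand.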

Additional observations from a re-analysis of the deposited data

How the results depend on the processing

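The level of chromosome 4 above the arms (1.37) stayed positive under every alternative, from 0.82 with normexp to 1.80 with medians, and from 1.31 to 1.42 when each sample was left out in turn (4 samples); weighting the arms to the input brightness, chosen after seeing the data, gave 1.46. The change relative to the arms (0.01) turned to -0.17 with normexp, -0.0022 against all other probes of the design and -0.0016 with arms weighted to the input brightness. Leaving out each sample gave -0.16 to 0.17. Exchanging genotypes within replicates (replicate block) left 0.01, which could not move, since it is the mean of the same differences. Leaving out the centring likewise could not move this value or the level above the arms. Windows increased (1) became 45 with the replicate block, 0 without the trend, with normexp and with loess, 2 with 1 kb windows and with the deposited log2 ratios, and 4 without centring and with scaling by the median absolute deviation. Windows decreased (0) became 29 with the replicate block and 1 without centring and with that scaling. Each count of windows stayed at 1 and 0 when any sample was left out. Increased peaks (10) became 0 with normexp, 4 with 3 SD, 1 with the mean and SD taken before smoothing, and 21 to 27 on a single replicate. Decreased peaks (5) became 43 with normexp, 3 with the scaling, 2 with the deposited log2 ratios, 1 with 3 SD, 0 with the mean and SD before smoothing, and 15 to 19 on a single replicate. The cause of these shifts was not tested, beyond the fact that single replicates drop the overlap and that 3 SD is stricter. The called window kept its call in 12 of 15 alternatives. Of 150 levels of the 10 highest and lowest windows under alternatives, 123 moved by less than the spread between replicates. The other 27 include all 5 highest windows with loess. Some of the 150 could not move. The replicate block, the variance trend, the minimum of 5 probes and the restriction to the array design of chromosome 4 leave these window means unchanged. Of the 10 windows, 7 moved with loess, 8 with normexp and 8 without centring. With 2 samples per genotype no permutation test could pass 0.05.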
